A study of Homo sapiens with 6 samples.

Results

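The 10 genes considered here write histone or DNA methylation, or help to, and were followed in 22Rv1, an established human prostate carcinoma line, with and without knockdown of ZMYND11, a reader of histone H3.3 lysine 36 trimethylation. They were chosen by symbol, as the subunits and cofactors of Polycomb repressive complex 2 (PRC2) EZH2, EZH1, SUZ12, EED, JARID2 and PHF19, and as the DNA methyltransferases DNMT1, DNMT3A and DNMT3B with their partner UHRF1. All 10 are among the 35322 gene symbols counted, and all 10 were among the 16510 genes that passed the filter on low counts. RNA was sequenced in 6 libraries, in 3 groups of 2: control cells, a first knockdown of ZMYND11 (ZM11-kd1 in the labels, here kd1) and a second (ZM11-kd2, here kd2). The labels give the control cells the genotype WT. The study's legend on RNA sequencing of 22Rv1 cells describes controls with stable control shRNAs, so it speaks for a vector in the controls. The labels do not settle this. According to the study's methods, stable knockdown was made with lentiviral shRNA in the pLKO.1 vector. Which shRNA each knockdown carried, and whether a knockdown was a pool of cells or a clone, is not stated. Infected cells were selected and then kept under puromycin, to which the vector gives resistance, and whether the control cells were kept under it is not stated. No other drug and no time point is given for these libraries. Nothing says that the 2 libraries of a group came from separate cultures, so p-values measure the spread between these libraries only, which may be technical.

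PRC2 places methyl groups on lysine 27 of histone H3, a mark of silenced genes. EZH2 and EZH1 are its alternative catalytic subunits, EZH2 being typical of dividing cells and EZH1 of resting cells, while SUZ12 and EED are core subunits without which the complex is not active. DNMT1 copies DNA methylation onto the new strand after replication, guided there by UHRF1, whereas DNMT3A and DNMT3B place methylation on unmethylated DNA. EZH2 is known for high expression in advanced prostate cancer.

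The promoters of these genes were read first, since EZH2, DNMT1 and UHRF1 are textbook targets of the E2F factors that drive genes of the cell cycle. RefSeq windows from 250 bases before to 50 bases after each annotated start (GRCh38.p14) were searched on both strands for TTTCCCGC, TTTGGCGC and TTTCGCGC, forms of the E2F site that cannot match at the same place on the same strand; a gene with several matches was counted once. All 10 genes were found there, with 20 windows, more per gene than among genes at large. EZH2, SUZ12, PHF19, DNMT1 and UHRF1 held a match, 5 of 10 genes, against 3.3% of 27305 genes and 2.74% of 35116 windows. The letters TTTGAA, the core of the cell cycle homology region, were in 2 of the 10 genes (SUZ12 and DNMT3A), against 18.2% of genes. Stretches of 60 bases are shown for the genes with an E2F match. EZH1, the counterpart of EZH2, and DNMT3B, a de novo methyltransferase, had none in their windows and are shown too. The only DNMT3B window, from 32779602 to 32779901, lay inside the gene, which begins at 32762385. The sequence around that outer start of DNMT3B was not searched. Capitals mark the match, and each stretch is read along the strand of its gene.
EZH2 (chr7:148884277-148884336, minus strand): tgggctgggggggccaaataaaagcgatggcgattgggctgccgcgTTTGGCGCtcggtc
SUZ12 (chr17:31936772-31936831, plus strand): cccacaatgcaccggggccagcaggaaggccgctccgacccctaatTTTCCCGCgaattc
PHF19 (chr9:120877327-120877386, minus strand): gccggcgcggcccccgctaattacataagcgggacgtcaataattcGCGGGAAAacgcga
DNMT1 (chr19:10194942-10195001, minus strand): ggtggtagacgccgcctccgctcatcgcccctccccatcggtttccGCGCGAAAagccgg
UHRF1, first start (chr19:4909441-4909500, plus strand): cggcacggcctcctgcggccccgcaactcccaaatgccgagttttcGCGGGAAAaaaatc
UHRF1, second start (chr19:4909938-4909997, plus strand): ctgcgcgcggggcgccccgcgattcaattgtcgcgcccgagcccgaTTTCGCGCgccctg
EZH1 (chr17:42745041-42745100, minus strand, no match): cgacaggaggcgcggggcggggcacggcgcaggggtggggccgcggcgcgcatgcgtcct
DNMT3B (chr20:32779792-32779851, plus strand, no match): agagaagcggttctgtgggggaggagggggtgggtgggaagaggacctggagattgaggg
The match begins at the second base after the start in EZH2, 2 bases before the start in DNMT1, and 14 and 160 bases before the respective starts in UHRF1. In PHF19 it lies 152 and in SUZ12 189 bases before the start. A match of letters is a description and not a bound site, and its absence says only that these letters are not in the window.

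ZMYND11 itself checks the labels. Its level was 141 and 135 CPM (reads scaled to library size by the TMM method) in the control libraries, 27.7 and 26.1 in kd1, and 21.6 and 22.7 in kd2. All 9 prostate luminal markers listed were detected, and their summed level was 2747 to 2759 CPM in control cells, 3524 to 3543 in kd1 and 3961 to 3969 in kd2. Its members moved both ways, with KLK3 at log2 fold changes of -3.24 and -2.36 (adjusted p = 4.25e-12 and 6.8e-11, edgeR) and FOLH1 at 1.26 and 1.06 (adjusted p = 1.45e-11 and 1.48e-10, edgeR). The basal, endothelial and leukocyte markers summed to at most 0.442 CPM in any library, and CD3E was at 0 in all. The 3 fibroblast markers summed to 25.1 to 26.8 CPM in control cells, 77.3 to 78.0 in kd1 and 31.3 to 33.5 in kd2, nearly all of it COL1A1. The 4 neuroendocrine markers summed to 148 to 159, 175 to 184 and 133 to 152 CPM. SYP, the largest part of that sum in control cells, had -0.00089 in kd1 (adjusted p = 0.993, edgeR) and fell in kd2 (-0.33, adjusted p = 0.00156, edgeR). CHGA fell (-2.77 and -2.23, adjusted p = 6.1e-08 and 3.98e-07, edgeR) and CHGB rose (0.72 and 0.38, adjusted p = 8.79e-08 and 0.000107, edgeR), and INSM1 had 2 reads in 1 control library and 0 in the others. What part these shifts had in the results was not tested.

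RNA of the DNA methylation genes and of EZH2 was lower in both knockdowns, SUZ12 was lower in kd1, and the largest rise was that of EED, to 1.41-fold of control in kd2. In kd1, 7 of the 10 genes fell, where 39.8% of all 16510 genes tested fell, and 1 rose, where 38.2% of all genes rose (adjusted p under 0.05, edgeR). By at least 2-fold, 5 of the 10 fell, where 22.9% of all genes did, and 0 rose, where 19.1% did. In kd2, 6 of the 10 fell (36.9% of all genes) and 1 rose (36.5%). By at least 2-fold, 5 fell (19.2% of all genes) and 0 rose (12.7%). The median log2 fold change of the 10 genes was -1.0 in kd1 and -0.83 in kd2, beside -0.03 and -0.03 over all genes tested. With library totals alone 9 of the 10 were lower and 0 higher in kd1, where 8420 of all 16510 genes were lower and 4596 higher, and 6 and 1 in kd2, where 7220 and 4967 of all were. After a correction for the GC content and length of genes 6 of the 10 were lower and 2 higher in kd1 (6201 and 6476 of all genes), and 5 and 2 in kd2 (5820 and 6360). The medians of the 10 genes were -1.36 and -0.996 with library totals, and -0.57 and -0.57 after the correction. The fall was uneven between the groups. All 4 DNA methylation genes fell in both knockdowns, with medians of -3.44 and -2.18, and were called lower in these settings too. Of the 6 PRC2 genes 3 fell in kd1 and 2 in kd2, with medians of -0.24 and 0.04. The PRC2 counts followed the scaling. In kd1, library totals also called EZH1 (-0.38) and PHF19 (-0.46) lower and lost the rise of EED. After the GC and length correction JARID2 was no longer called there and EZH1 was called higher (0.23). Both knockdowns were compared with the same control libraries, so their values are given side by side and are not independent. Bulk RNA cannot tell fewer cells that express a gene from less RNA per cell.

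**Figure D1:**
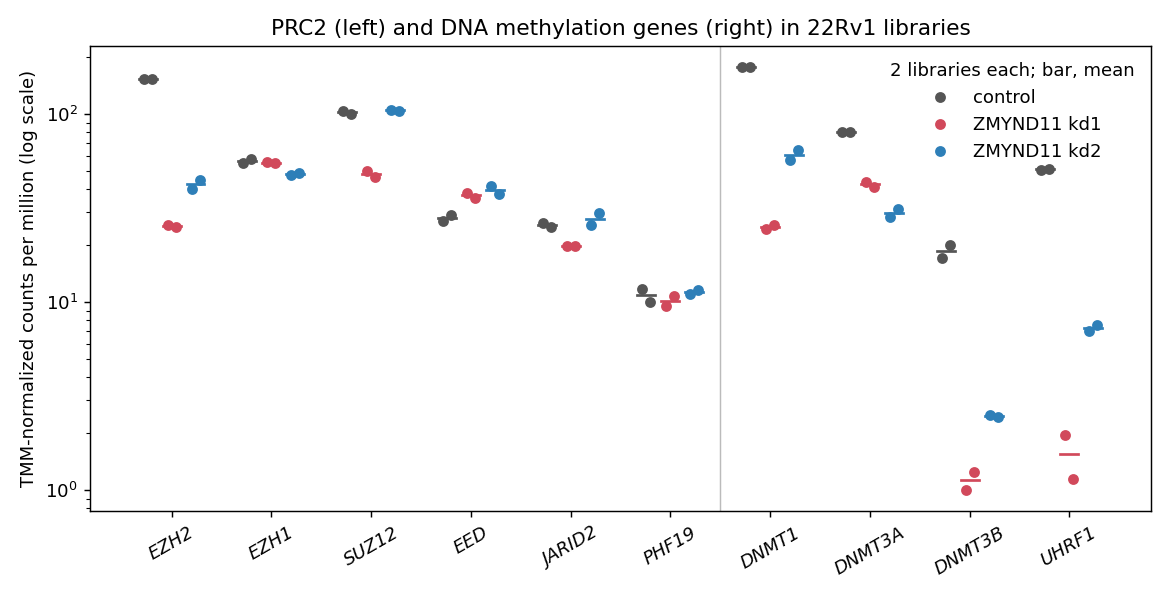
TMM-normalized CPM (log scale) of the 10 genes in each of the 6 libraries, with control in grey, kd1 in red and kd2 in blue; points are libraries and bars the mean of 2. All knockdown libraries lay below both control libraries for EZH2, DNMT1, DNMT3A, DNMT3B and UHRF1, and above both for EED.

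Of the catalytic subunits of PRC2, EZH2 fell and EZH1 changed little. EZH2, on chromosome 7 from 148807257 to 148884321 (GRCh38, minus strand), was at 154 and 153 CPM in the control libraries, 25.8 and 25.03 in kd1, and 39.8 and 44.6 in kd2. The 3 groups did not overlap, and the differences far exceeded the gaps within groups. EZH2 was 6.03-fold lower than control in kd1 (log2 fold change -2.59, standard error (SE) 0.07, adjusted p = 2.82e-13, edgeR) and 3.63-fold lower in kd2 (-1.86, SE 0.06, adjusted p = 7.35e-12, edgeR). In kd1, 6.30% of all genes tested had a lower log2 fold change, and in kd2 9.58%. The GC and length correction gave EZH2 a log2 fold change of -1.97 in kd1 and -1.64 in kd2, both still called.

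EZH1, on chromosome 17 from 42700275 to 42745049 (minus strand), was at 54.7 and 57.7 CPM in the control libraries, 55.6 and 54.8 in kd1, and 47.3 and 48.7 in kd2. The libraries of kd1 lay among the controls, and those of kd2 lay below them. Its log2 fold change was -0.03 in kd1 (SE 0.06, adjusted p = 0.710, edgeR), which did not pass, and -0.23 in kd2 (SE 0.06, adjusted p = 0.00479, edgeR), which did. The direction of so small a difference followed the scaling. In kd1 it was -0.38 with library totals alone (adjusted p = 9.03e-05, edgeR) and 0.23 after the GC and length correction (adjusted p = 0.00223, edgeR). In kd2 the call was lost after that correction (-0.09, adjusted p = 0.177, edgeR) and without control replicate 2 (-0.19, adjusted p = 0.0777, edgeR).

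The balance between the catalytic subunits can be read within a library, where no scaling between libraries enters. Per kilobase of exon, the ratio of EZH2 to EZH1 counts was 1.82 and 1.72 in the control libraries, 0.301 and 0.297 in kd1, and 0.545 and 0.594 in kd2. EZH2 counts thus exceeded EZH1 counts in control cells and were below them in both knockdowns. Per kilobase of each gene's longest coding transcript, the ratios were 4.90 and 4.63, 0.810 and 0.798, and 1.47 and 1.60, so which of the pair was higher in kd2 depended on the length used. The mean log2 ratio of the 4 knockdown libraries minus that of the 2 control libraries was -2.10. A fixed length per gene cancels in this difference, so the choice of length cannot change it. An exact permutation test over the libraries, two-sided, gave p = 0.133, which is the smallest p that the 15 possible arrangements allow, and 0.133 after adjustment over the 3 ratios tested.

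**Figure D2:**
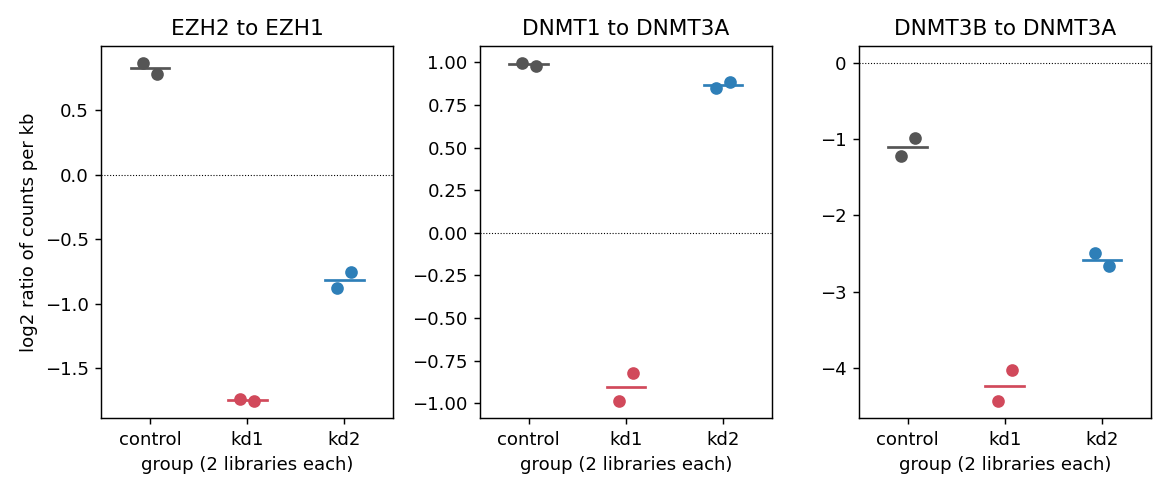
Log2 ratio of counts per kilobase of exon for EZH2 to EZH1, DNMT1 to DNMT3A and DNMT3B to DNMT3A in each library, with a dotted line at equal counts; points are libraries, bars the mean of 2, and each panel has its own vertical scale. The ratio of EZH2 to EZH1 lay above the line in control cells and below it in both knockdowns, and the ratio of DNMT1 to DNMT3A lay below the line only in kd1.

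Of the other core subunits of PRC2, SUZ12 fell in kd1 alone and EED rose in both knockdowns. SUZ12, on chromosome 17 from 31937007 to 32001038 (plus strand), which holds the complex together, was at 104 and 101 CPM in control cells, 50.01 and 46.4 in kd1, and 106 and 104 in kd2. Only the libraries of kd1 stood apart from the others. SUZ12 was 2.12-fold lower than control in kd1 (log2 fold change -1.09, SE 0.06, adjusted p = 4.33e-10, edgeR). In kd2 its log2 fold change was 0.04 (SE 0.06, adjusted p = 0.596, edgeR), which turned to -0.14 with library totals alone (adjusted p = 0.0548, edgeR). The fall in kd1 ranged from -1.44 with library totals to -0.65 after the GC and length correction, past the threshold in each setting.

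EED, on chromosome 11 from 86201212 to 86278813 (plus strand), the subunit that binds the methyl mark itself, was the gene of the 10 that rose. It was at 27.01 and 29.0 CPM in control cells, 38.2 and 35.6 in kd1, and 41.6 and 37.6 in kd2. The knockdown libraries all lay above the controls and overlapped each other. The log2 fold change was 0.40 in kd1 (SE 0.08, adjusted p = 0.000401, edgeR) and 0.50 in kd2 (SE 0.08, adjusted p = 5.39e-05, edgeR). With library totals alone the rise in kd1 was 0.04 and no longer called (adjusted p = 0.637, edgeR), and after the GC and length correction it was 0.82. EED shares 221 exon bases, 3.2% of its exons, with a gene on the opposite strand, and whether the counting used strand is not stated.

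Of the accessory subunits, JARID2 fell in kd1 and PHF19 passed the test in neither knockdown. JARID2, on chromosome 6 from 15246069 to 15522042 (plus strand), which helps PRC2 reach chromatin, was at 26.4 and 25.05 CPM in control cells, 19.8 and 19.8 in kd1, and 25.6 and 29.8 in kd2. Its libraries of kd1 lay below the others, and of those of kd2 one lay between the controls and the other above them. The log2 fold change was -0.38 in kd1 (SE 0.09, adjusted p = 0.00179, edgeR) and 0.11 in kd2 (SE 0.09, adjusted p = 0.292, edgeR). The call in kd1 was lost after the GC and length correction (-0.17, adjusted p = 0.0816, edgeR). In kd2 JARID2 was called higher after that correction (0.20, adjusted p = 0.0334, edgeR) and without kd2 replicate 1 (0.21, adjusted p = 0.0381, edgeR). PHF19, on chromosome 9 from 120855651 to 120894896 (minus strand), a Polycomb-like subunit that recognizes methylated lysine 36 of histone H3, was at 11.8 and 9.98 CPM in control cells, 9.54 and 10.8 in kd1, and 11 and 11.6 in kd2. These values overlapped between control cells and each knockdown. PHF19 had log2 fold changes of -0.10 (adjusted p = 0.463, edgeR) and 0.05 (adjusted p = 0.709, edgeR), neither of which passed. It was called lower in kd1 with library totals alone (-0.46, adjusted p = 0.00418, edgeR).

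**Figure D3:**
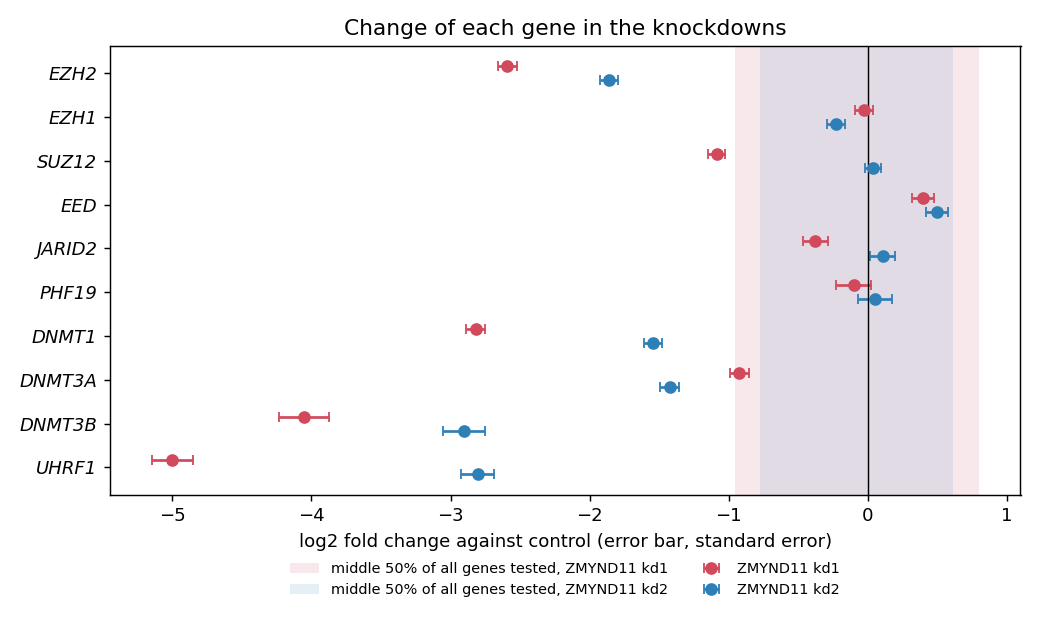
Log2 fold change against control of each of the 10 genes in kd1 (red) and kd2 (blue), with the standard error as error bar; the shaded bands hold the middle 50% of all genes tested, from -0.95 to 0.80 in kd1 and from -0.78 to 0.61 in kd2. EZH2, DNMT1, DNMT3B and UHRF1 lie below the band in both knockdowns, DNMT3A and SUZ12 in 1 knockdown each, and EED, EZH1, JARID2 and PHF19 inside it.

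Both parts of the machinery that copies DNA methylation at replication fell steeply. DNMT1, on chromosome 19 from 10133342 to 10231286 (minus strand), was at 178 and 177 CPM in the control libraries, 24.5 and 25.8 in kd1, and 57.2 and 64.2 in kd2. The groups did not overlap. DNMT1 was 7.06-fold lower in kd1 (log2 fold change -2.82, SE 0.07, adjusted p = 1.5e-13, edgeR) and 2.92-fold lower in kd2 (-1.55, SE 0.06, adjusted p = 3.57e-11, edgeR). Its exons share 83 bases with S1PR2, 0.5% of their length.

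UHRF1, on chromosome 19 from 4903080 to 4962154 (plus strand), which binds hemimethylated DNA, was at 50.5 and 51.3 CPM in control cells, 1.97 and 1.15 in kd1, and 7.05 and 7.50 in kd2. In reads this was 1536 and 1592, then 67 and 34, then 252 and 257. The groups were far apart, but the 2 libraries of kd1 differed from each other by more than those of the other groups, relative to their level. UHRF1 was 32.0-fold lower in kd1 (log2 fold change -5.00, SE 0.15, adjusted p = 8.61e-13, edgeR) and 6.99-fold lower in kd2 (-2.80, SE 0.12, adjusted p = 3.75e-11, edgeR). Leaving out either library of kd1 moved its value there between -5.46 and -4.68. Of all genes tested, 1.31% had a lower log2 fold change in kd1 and 4.46% in kd2.

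The de novo methyltransferases fell as well. DNMT3B, on chromosome 20 from 32762385 to 32809359 (plus strand), was at 17.1 and 20.2 CPM in control cells, 1.00 and 1.25 in kd1, and 2.52 and 2.45 in kd2. Only 34 and 37 reads were left in the libraries of kd1, and 90 and 84 in those of kd2. It was 16.6-fold lower in kd1 (log2 fold change -4.05, SE 0.18, adjusted p = 3.36e-11, edgeR) and 7.48-fold lower in kd2 (-2.90, SE 0.15, adjusted p = 4.23e-10, edgeR).

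DNMT3A, on chromosome 2 from 25227855 to 25342590 (minus strand), was at 79.7 and 80.3 CPM in control cells, 43.5 and 40.9 in kd1, and 28.5 and 31.1 in kd2. Its lowest libraries were those of kd2, the reverse of EZH2, DNMT1, DNMT3B and UHRF1. DNMT3A was 1.90-fold lower in kd1 (log2 fold change -0.92, SE 0.07, adjusted p = 9.61e-09, edgeR) and 2.68-fold lower in kd2 (-1.42, SE 0.07, adjusted p = 1.82e-10, edgeR). After the GC and length correction these were -0.50 and -1.06, both still called.

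The ratios among the methyltransferases shifted with these falls. Per kilobase of exon, the ratio of DNMT1 to DNMT3A counts was 1.996 and 1.97 in control cells, 0.504 and 0.565 in kd1, and 1.80 and 1.85 in kd2. DNMT1 counts thus fell below those of DNMT3A in kd1, with either length, while in kd2 the ratio stayed close to that of control cells. DNMT3B to DNMT3A went from 0.430 and 0.503 in control cells to 0.0461 and 0.0613 in kd1 and 0.177 and 0.158 in kd2. Over the 4 knockdown libraries against the 2 controls, the log2 ratios differed by -1.01 and -2.30, each with p = 0.133 in the two-sided exact permutation test, again the smallest p possible.

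The order of the genes by level changed accordingly. Per kilobase of exon, SUZ12 (15.6 CPM per kb ± 0.394, SD, n = 2), EZH2 (14.2 ± 0.0342) and DNMT1 (11.5 ± 0.0389) led in control cells, PHF19 (1.65 ± 0.195) and DNMT3B (2.71 ± 0.316) were lowest, and UHRF1 was the fourth at 9.89 ± 0.108. In kd1 the order was led by EZH1 (7.90 ± 0.0859) and SUZ12 (7.36 ± 0.389), which differed by little more than the SD of SUZ12, and EZH2 was the sixth at 2.36 ± 0.0496. In kd2, SUZ12 (16.0 ± 0.134) and EZH1 (6.87 ± 0.138) were highest. EZH2 (3.92 ± 0.313) and DNMT1 (3.95 ± 0.320) had levels within their spread there. UHRF1 was the ninth and DNMT3B the tenth in both knockdowns, with 0.303 ± 0.113 and 0.164 ± 0.0256 in kd1. With the longest coding transcript as length, EZH2 led in control cells, EED (17.7 ± 0.861) led in kd1 ahead of EZH1 and SUZ12, and EED (19.0 ± 1.35) was the second in kd2 behind SUZ12, with EZH2 the third and EZH1 the fourth. UHRF1 and DNMT3B were the lowest in both knockdowns with that length too.

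Set directly against each other, the knockdowns differed at 8 of the 10 genes. In kd2, 6 genes were higher than in kd1 (34.9% of all genes were) and 2 were lower (33.8%), with 4 higher by at least 2-fold (12.0%) and 0 lower by at least 2-fold (13.7%). The largest differences were those of UHRF1 (log2 fold change 2.20, SE 0.17, adjusted p = 4.74e-08, edgeR) and DNMT1 (1.27, SE 0.07, adjusted p = 1.01e-09, edgeR). DNMT3B (1.15, adjusted p = 0.000288, edgeR), SUZ12 (1.12, adjusted p = 7.9e-10, edgeR), EZH2 (0.73, adjusted p = 3.5e-07, edgeR) and JARID2 (0.48, adjusted p = 0.000264, edgeR) were also higher in kd2. DNMT3A was lower there (-0.50, adjusted p = 1.77e-05, edgeR), as was EZH1 (-0.20, adjusted p = 0.0112, edgeR). The call of EZH1 was lost with library totals alone (-0.02, adjusted p = 0.836, edgeR) and without either library of kd1. EED and PHF19, at 0.10 (adjusted p = 0.259, edgeR) and 0.16 (adjusted p = 0.275, edgeR), did not pass. With library totals alone both were called higher in kd2 (0.29 and 0.34, adjusted p = 0.0049 and 0.0254, edgeR), as was PHF19 after the GC and length correction (0.29, adjusted p = 0.0393, edgeR). ZMYND11 was a little lower in kd2 than in kd1 (-0.28, adjusted p = 0.00265, edgeR), a call lost with library totals alone. After the GC and length correction the difference of EZH2 was 0.33 (adjusted p = 0.000153, edgeR), that of SUZ12 0.70 (adjusted p = 1.15e-08, edgeR), and that of EED turned to -0.44 (adjusted p = 8.3e-05, edgeR).

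The other genes of the pathways were counted from lists of known members, and their counts stand beside 38.2% of all genes that rose and 39.8% that fell in kd1, and 36.5% and 36.9% in kd2. Of 9 other PRC2 subunits, 8 were tested, of which 2 rose and 3 fell in kd1 and 5 rose and 0 fell in kd2. The medians were 0.03 and 0.32, which were -0.32 and 0.15 with library totals alone and 0.32 and 0.40 after the GC and length correction. The counts in kd1 followed the scaling, with 1 higher and 5 lower with library totals alone and 4 higher and 1 lower after the GC and length correction, while in kd2 0 were lower under either and 3 and 7 were higher, respectively. PHF1, a Polycomb-like subunit related to PHF19, rose from 48.8 and 50.6 CPM in control cells to 98.9 and 95.0 in kd1 and 106 and 100.5 in kd2 (log2 fold changes 0.96 and 1.05, adjusted p = 1.53e-09 and 9.16e-10, edgeR). Of 19 subunits of PRC1, the complex that ubiquitinates histone H2A, 9 rose and 8 fell in kd1, and 8 rose and 4 fell in kd2. Their medians of 0.13 and 0.01 turned to -0.22 and -0.16 with library totals alone, and in kd1 to -0.09 after the GC and length correction. With library totals alone 8 were higher and 10 lower in kd1 and 7 and 7 in kd2, and after the correction 7 and 8, and 9 and 5. CBX2, which reads the PRC2 mark, fell from 10.1 and 11.3 CPM to 2.03 and 1.62 in kd1 and 2.07 and 2.86 in kd2 (-2.54 and -2.11, adjusted p = 1.63e-08 and 9.48e-08, edgeR). PHC1 fell by 1.02 and 1.31 on the log2 scale (adjusted p = 2.44e-07 and 2.38e-08, edgeR). BMI1, a partner of the ubiquitin ligase, rose from 47.6 and 50.9 CPM to 106 and 99.2 in kd1 and 115 and 99.6 in kd2 (1.06 and 1.12, adjusted p = 5.2e-09 and 4.19e-09, edgeR).

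Among enzymes that remove these marks, calls went both ways. Of 6 H3K27 demethylases and subunits of the H2A deubiquitinase, 2 rose and 4 fell in kd1 and 4 rose and 1 fell in kd2, with medians of -0.28 and 0.42. With library totals alone 0 were higher and 4 lower in kd1 and 3 and 1 in kd2, and after the GC and length correction 2 and 2, and 5 and 0. The medians were then -0.63 and 0.25, and -0.064 and 0.68. ASXL1, a subunit of that deubiquitinase, fell (-1.13 and -0.45, adjusted p = 7.96e-10 and 1.55e-05, edgeR), the second call being lost after the GC and length correction. Its catalytic partner BAP1 rose (0.32 and 0.63, adjusted p = 9.61e-05 and 1.19e-07, edgeR). The rise of BAP1 in kd1 was not called with library totals alone (-0.030) or after the GC and length correction (-0.0012), where its sign turned. Of 4 genes of DNA demethylation, 1 rose and 2 fell in kd1, and 2 rose and 1 fell in kd2. Their medians were -0.34 and 0.30, which were -0.70 and 0.13 with library totals alone and 0.15 and 0.45 after the GC and length correction. In kd1, 0 were higher and 2 lower with library totals alone, and 2 and 2 after the correction. TET2, which oxidizes methylcytosine, rose in both (0.31 and 0.55, adjusted p = 0.00135 and 7.58e-06, edgeR), but in kd1 it was at -0.046 with library totals alone.

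Among genes that read methylated DNA or work with UHRF1 and DNMT1, falls were deeper than rises. Of 11, 10 were tested, of which 6 fell and 1 rose in kd1 and 5 fell and 3 rose in kd2. The medians were -0.38 and -0.08, or -0.73 and -0.25 with library totals alone and 0.04 and 0.09 after the GC and length correction. These counts depended on the scaling, with 0 higher and 9 lower in kd1 and 0 and 5 in kd2 with library totals alone, and 5 and 5, and 4 and 4, after the correction. CDCA7 and HELLS, which form a chromatin remodeler that maintains DNA methylation, fell most. CDCA7 went from 38.4 and 37.0 CPM to 1.32 and 1.32 in kd1 and 3.08 and 2.01 in kd2 (-4.83 and -3.88, adjusted p = 3.11e-12 and 1.34e-11, edgeR). HELLS went from 115 and 118 CPM to 12.7 and 12.2 and then 26.8 and 26.1 (-3.22 and -2.14, adjusted p = 5.61e-14 and 1.79e-12, edgeR). UHRF2, the paralog of UHRF1, also fell (-1.42 and -0.96, adjusted p = 6.64e-11 and 5.29e-09, edgeR). DNMT3L, a cofactor without catalytic activity, was too low to be tested.

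Genes described as silenced through EZH2 or by promoter methylation did not move in a common direction. Of 12 genes described as silenced through EZH2 in cancer cells, 11 were tested, of which 5 rose and 3 fell in kd1 and 4 rose and 4 fell in kd2, with medians of 0.20 and 0.02, or -0.16 and -0.16 with library totals alone and 0.30 and 0.04 after the GC and length correction. Library totals gave 4 higher and 5 lower in kd1 and 3 and 4 in kd2. MSMB, a prostate secretory protein, rose from 1.18 and 1.13 CPM to 5.03 and 5.00 in kd1 and 10.4 and 11.4 in kd2 (2.12 and 3.23, adjusted p = 9.98e-08 and 6.06e-10, edgeR). KLF2, a transcription factor, rose from 6.67 and 6.79 CPM to 36.7 and 37.4 and then 21.4 and 18.0 (2.46 and 1.55, adjusted p = 2.95e-11 and 9.18e-09, edgeR). BMPR1B, a receptor for bone morphogenetic proteins, fell (-1.15 and -0.42, adjusted p = 3.18e-08 and 0.000679, edgeR). Of 10 genes often silenced by promoter DNA methylation, 7 were tested, of which 4 rose and 2 fell in kd1 and 3 rose and 2 fell in kd2, with medians of 0.63 and 1.13. With library totals alone 2 were higher and 2 lower in kd1, with a median of 0.27, and after the GC and length correction 3 were higher and 1 lower in kd2, with medians of 0.94 and 1.09. RASSF1 rose from 32.0 and 34.0 CPM to 106 and 108 and then 78.8 and 65.5 (1.69 and 1.13, adjusted p = 9.83e-11 and 1.38e-08, edgeR). PTGS2 rose by 0.63 and 1.59 (adjusted p = 0.000688 and 4.47e-08, edgeR), the first of which was not called with library totals alone. MAEL, a germline gene, was at 1.35 and 1.42 CPM in control cells and fell (-1.12 and -1.59, adjusted p = 0.0175 and 0.00266, edgeR), the first call being lost with the Wald test of DESeq2 and without control replicate 1, control replicate 2 or kd1 replicate 1. GSTP1, the best known gene of this kind in prostate cancer, was too low to be tested. Neither histone methylation nor DNA methylation was measured.

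Genes of the cell cycle moved with EZH2, DNMT1, DNMT3B and UHRF1. All 15 DNA replication genes listed fell in both knockdowns, with medians of -2.30 and -1.92, and 14 of 15 mitotic genes did, with medians of -4.95 and -3.73. The exception was NUSAP1, at 1.14 CPM on average in control cells. MKI67, the proliferation marker, was at 187 and 189 CPM in control cells, 0.648 and 0.709 in kd1, and 1.93 and 1.96 in kd2 (-8.11 and -6.59, adjusted p = 7.91e-16 and 1.33e-15, edgeR). CDC45, part of the replicative helicase, was at 71.6 and 70.1, then 1.06 and 1.01, then 4.25 and 4.0 CPM (-6.09 and -4.10, adjusted p = 2.07e-14 and 1.46e-13, edgeR). Others that the same rule named were RRM2 (-4.88 and -2.61), CDC6 (-4.48 and -2.85), CENPF (-7.84 and -6.05) and TOP2A (-7.23 and -5.82). Between the knockdowns, 14 of the 15 replication genes and 12 of the 15 mitotic genes were higher in kd2, with medians of 0.60 and 1.22. Of all genes tested, 34.9% were higher there. The counts of both lists against control were the same with library totals and after the GC and length correction. Of the 5 genes with an E2F match, EZH2, DNMT1 and UHRF1 fell in both knockdowns. SUZ12 fell in kd1 alone, and PHF19 passed the test in neither knockdown. DNMT3A and DNMT3B, with no match in their windows, fell in both. The part of the cell cycle, or of these matches, in the values of the 10 genes was not tested.

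A search over 12778 genes for the levels most like those of EZH2 and EZH1 compared log2 CPM, centred on the controls, over the 6 libraries. Nearest to EZH2 were LINC00654, a long noncoding RNA, with a root mean square difference of 0.0633, PPP1R12B (0.0795), a subunit of myosin phosphatase, and CCDC14 (0.0840). PPP1R12B had a mean of 80.2 CPM in control cells, 12.6 in kd1 and 20.6 in kd2. Nearest to EZH1 were NUP37 (0.0288), of the nuclear pore, VPS41 (0.0383), of vesicle transport, and WSB1 (0.0396). The points are 6 libraries in 3 groups, so likeness here is likeness of the 3 group means.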

How the data were processed

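Libraries of 22Rv1 RNA, 6 in all, were grouped by their labels into 3 groups of 2. Reads were assessed with FastQC, trimmed with AdapterRemoval, aligned to hg38 with STAR and sorted with SAMtools. The submitters' processing notes also list HTSeq 0.13.5, without its role. The deposited table holds raw read counts by gene symbol, left unnormalized by the authors. The annotation, the use of strand and the treatment of reads with several matches are not given in the sources used here. Total counts ran from 26844128 to 38193748 per library, which sets the precision of low counts.

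Genes were tested on these counts by edgeR 4.0.16 (R 4.3.3; TMM, filterByExpr, quasi-likelihood test, 1 fit of 3 groups, 3 residual degrees of freedom). Benjamini-Hochberg adjustment ran over all 16510 genes tested, with a threshold of 0.05. Genes were placed with GENCODE 44 (GRCh38). Of the gene symbols, 32852 matched by name, 234 by a RefSeq synonym, and 2236 did not match. Promoter sequences are those of RefSeq (GRCh38.p14). Ratios were tested with scipy 1.17.1. None of the 10 genes had the same counts as another gene.

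The genes, the lists, the tests and the alternatives were chosen with earlier results of these data known. Named in the text are the 10 genes, ZMYND11, up to 3 genes per list with the largest mean log2 fold change called the same way in both knockdowns, and the 3 genes nearest to EZH2 and to EZH1 among those with a mean log2 CPM of at least 1. KLK3, FOLH1, CHGA, CHGB, SYP, INSM1, CD3E, COL1A1, DNMT3L, GSTP1, NUSAP1, TET3, KDM6B, PCGF5 and LCOR were named after their values were seen. The lists were other PRC2 subunits, PRC1 subunits, H3K27 demethylases and H2A deubiquitinase, DNA demethylation, methyl-CpG readers and partners of UHRF1 and DNMT1, genes silenced through EZH2, genes silenced by methylation, DNA replication and mitosis. Alternatives were DESeq2 size factors, library totals, the Wald test of DESeq2 1.42.0, the filter dropped, a minimum of 10 counts in every library, fits of only the groups compared, a replicate block, a 2-fold threshold, a lowess correction (span 0.3) for GC content and exon length, the longest coding transcript as length for ratios, and each library left out. The fit was tested on simulated data for the 16510 genes, with 200 changed per knockdown, as many up as down. In the first knockdown it recovered 93.8% of the 193 changed genes that passed the filter, with 4.74% of calls false. In the second it recovered 88.9% of 198, with 4.35% false. In the real data 12882 genes were called in kd1, and the simulation does not cover data in which most genes change. Figures were drawn with matplotlib 3.10.9 in Python 3.11.15.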

Additional observations from a re-analysis of the deposited data

Results flagged for a closer look

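For 8 of the 10 genes, the change against the shared controls differed between the knockdowns by the test of kd2 against kd1, as it did for 11355 of all 16510 genes tested, so that 8 of 10 lies near the share over all genes. The log2 differences were 2.20 for UHRF1, 1.27 for DNMT1, 1.15 for DNMT3B, 1.12 for SUZ12, 0.73 for EZH2 and 0.48 for JARID2, higher in kd2, and -0.50 for DNMT3A and -0.20 for EZH1, lower in kd2. The difference of EZH1 was not called with library totals alone, where it was -0.02, or without either library of kd1. Each group held 2 libraries, and what else differed between the knockdowns, such as the shRNA, cannot be told apart from the knockdown itself.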

How the results depend on the processing

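Of 140 comparisons of the 10 genes with an alternative setting, 133 kept direction and call in kd1, 130 in kd2 and 133 between the knockdowns. Library totals moved the median of all genes to -0.38 in kd1, -0.20 in kd2 and 0.21 between them, and the share of calls that were higher from 49.0% to 35.3%, from 49.8% to 40.8% and from 50.8% to 61.1%. Log2 fold changes correlated with GC content across genes at 0.19, -0.03 and -0.29 (Spearman), and with exon length at -0.29, -0.13 and 0.24. Genes are not independent replicates, and the cause was not tested.

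A 2-fold threshold left 5 of the 10 genes called in kd1, 5 in kd2 and 4 between the knockdowns. Of the list genes, whose numbers tested stand with each list above, it left 48, 43 and 25 in the 3 comparisons. Of all genes tested, 19.1% were higher and 22.9% lower by that threshold in kd1. The shares were 12.7% and 19.2% in kd2, and 12.0% and 13.7% between the knockdowns. Signs turned in kd1 for EZH1 (0.23) and BAP1 (-0.0012) after the GC and length correction, and for BAP1 (-0.030) and TET2 (-0.046) with library totals. In kd2 library totals turned SUZ12 (-0.14), JARID2 (-0.063) and PHF19 (-0.12), and at least 10 counts in every library turned SUZ12 (-0.0050). Between the knockdowns the GC and length correction turned EED (-0.44), BMI1 (-0.16), TET2 (-0.10) and RASSF1 (0.13). With each library left out, EZH1 in kd1 ran from -0.0705 to 0.010, PHF19 from -0.22 to 0.018 there and from -0.062 to 0.18 in kd2, JARID2 in kd2 from -0.0025 to 0.21, and BMI1 between the knockdowns from -0.051 to 0.16. The log2 ratio against control ran from -2.28 to -1.94 for EZH2 to EZH1, from -1.31 to -0.69 for DNMT1 to DNMT3A, and from -2.60 to -1.96 for DNMT3B to DNMT3A.

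Deviations of equally numbered libraries correlated at 0.01, -0.03 and -0.04 across genes, so no shared effect of the replicate number was seen. Whether equally numbered libraries were made together is not stated. A replicate block left 8, 7 and 8 of the 10 genes called, as without it.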

Other observations

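Some genes of neighbouring pathways, chosen after their values were seen, stood on opposite sides of control in the knockdowns. TET3, which oxidizes methylcytosine, was at 72.0 and 73.1 CPM in control cells, 50.4 and 44.5 in kd1, and 151 and 169.6 in kd2. Its log2 fold change was -0.61 in kd1 and 1.14 in kd2 (adjusted p = 2.51e-06 and 2.35e-09, edgeR), and 1.76 between the knockdowns (adjusted p = 7.28e-11, edgeR). KDM6B, an H3K27 demethylase, had -0.28 and 0.72, and 1.00 between them (adjusted p = 0.00148, 1.59e-07 and 6.71e-09, edgeR). PCGF5 of PRC1 had -1.01 and 0.47, and 1.48 between them (adjusted p = 7.04e-09, 1.92e-05 and 2.7e-10, edgeR). LCOR, which binds PRC2 through one of its isoforms, had -1.29 and 0.41, and 1.69 between them (adjusted p = 1.39e-10, 2.6e-05 and 3.41e-11, edgeR). These 4 genes kept their directions and calls with library totals and after the GC and length correction, but their sizes moved. With library totals TET3 in kd1 was at -0.97, KDM6B in kd1 at -0.63, PCGF5 in kd2 at 0.30 and LCOR in kd2 at 0.24. After the correction TET3 in kd1 was at -0.18 (adjusted p = 0.0134, edgeR), KDM6B in kd1 at -0.47, PCGF5 in kd1 at -0.50 and between the knockdowns at 0.93, and LCOR at -0.47 in kd1 and 0.92 in kd2.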
